A study of Schizosaccharomyces pombe with 16 samples.

Results

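The messenger RNAs described here are those of the 8 protein genes of the fission yeast mitochondrial genome: cox1 (SPMIT.01), cox2 (SPMIT.11), cox3 (SPMIT.04), cob1 (SPMIT.05), atp6 (SPMIT.07), atp8 (SPMIT.09), atp9 (SPMIT.10) and var1 (SPMIT.08). They were taken by identifier from 7018 transcripts in each of 2 tables of normalized counts. In the study, the RNA-binding protein Zfs1 with a TAP affinity tag was pulled down and its RNA sequenced (RIP-Seq), and TAP-tagged green fluorescent protein (GFP) served as a mock control. In 3 experiments per strain, RNA was sequenced from the total extract (input) and from the immunoprecipitate (IP), which gave 12 libraries, and RNA-Seq of wild-type and zfs1Δ cells in 2 experiments gave 4 more. The transcripts of this compartment, which is separate from the cytoplasm, serve as a control for the IPs.

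The strain named FR1401 carried zfs1-TAP::kanMX6 at the zfs1 locus in an h- background. FR1424 was h+ with ura4-D18 and carried gfp-TAP, marked with ura4+, between the nmt1 promoter and terminator at leu1, so that the control protein came from another promoter than Zfs1 and the strains also differed in mating type and markers. Wild type was PN4 and the zfs1Δ strain was FR434, whose further genotype was not given in the sources used here. All cells grew exponentially in minimal medium (EMM) at 25 °C. The study describes the Zfs1 IP and RNA-Seq experiments as biological repeats and does not say so of the GFP IPs, whose spread may be technical.

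Mitochondrial genomes of fungi keep a few genes for the inner-membrane complexes of respiration, whereas most subunits of those complexes are encoded in the nucleus, made in the cytosol and imported. The mitochondrial genes are transcribed by a dedicated RNA polymerase into long precursors that are cut at tRNAs, and their messengers are translated by ribosomes inside the organelle. Zfs1 belongs to the tristetraprolin family of CCCH zinc-finger proteins, which bind AU-rich elements in messenger RNA and promote its decay in the cytoplasm.

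Zfs1-family proteins are known for binding the nonamer TTATTTATT (written as DNA), so the mitochondrial sequences were searched for it, for its core heptamer TATTTAT and for the pentamer ATTTA. Each nonamer holds 1 such heptamer and each heptamer holds 1 such pentamer. In the RefSeq mitochondrial genome of ASM294v3, 19433 nt long with 69.9% A+T, the nonamer had 0 matches on the plus strand and 0 on the minus strand. Among 646 nuclear windows of the same length, 580 (89.8%) had at least 1 match on either strand. This RefSeq sequence may differ from the PomBase sequence to which the reads were aligned.

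All 8 genes lie on the plus strand of the mitochondrial genome (MT). RefSeq places cox1 at MT:4885-8792 with 3 coding exons, cox3 at MT:8961-9770, cob1 at MT:10175-13864 with 2 coding exons, and atp6 at MT:14758-15531. The gene named rps3 in RefSeq, taken here as var1, lies at MT:15956-16639, followed by atp8 at MT:16916-17062, atp9 at MT:17808-18032 and cox2 at MT:18563-19309. On the sense strand of the coding sequences, the heptamer occurred 4 times in cox3 (810 nt), 3 times in cox1 (1617 nt), 2 times in cob1 (1164 nt), 1 time each in atp6 (774 nt), var1 (684 nt) and atp8 (147 nt), and not in cox2 (747 nt) or atp9 (225 nt). Thus 6 of 8 coding sequences (75%) held it, against 19.6% of 2150 nuclear coding sequences between cox2 and cox1 in length and 21.3% of all 5145. The pentamer was in 7 of 8, against 86.7% of the nuclear sequences of that length range, and atp9 was the exception. It occurred 11 times each in cox1 and cob1, and 7 times each in cox3 and var1. In atp6 it occurred 5 times, in cox2 2 times and in atp8 1 time. Its density was 7.13 per kb over the 8 members, against 2.19 per kb over those nuclear sequences. The heptamer was added to the search after the values were seen. The median nuclear coding sequence had 60.4% A+T, and the mitochondrial ones ranged from 61.8% in atp9 to 81.0% in atp8.

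The heptamers (capitals) of cox1 and cox3, the messengers with the highest IP to input ratios below, stand in the following plus-strand windows, each with 11 nt on either side.
cox1 at MT:4943-4971: ttgccatactaTATTTATtattcggattg
cox1 at MT:6721-6749: agcaggtggatTATTTATgttattctcag
cox1 at MT:8585-8613: ttcattattccTATTTATgtatgttatgt
cox3 at MT:9130-9158: tagcaactatgTATTTATggtttagagat
cox3 at MT:9636-9664: gctacttataaTATTTATacttaccactt
cox3 at MT:9687-9715: tttgaatgtggTATTTATtattggcattt
cox3 at MT:9738-9766: ctttatttaacTATTTATatttggggtag

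In cox2, which held no heptamer but was also higher in the Zfs1 IP, the closest windows matched 8 of the 9 positions of the nonamer (capitals, with 10 nt on either side). Counted from 1 at the 5′ end of the nonamer, the difference was A7T in the first window and T5C in the second. A best match of 8 of 9 positions was shared by every member but atp9, with 4 such windows in cob1 and 3 in atp6.
cox2 at MT:18556-18584: gctctctatgTTATTTTTTaactctatat
cox2 at MT:19165-19193: tcaagtttctTTATCTATTgatagagaag

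The coding sequence of atp9, whose IP value was below the matching input in all 6 IPs, held neither the heptamer nor the pentamer, and its best window matched 7 of the 9 positions.
atp9 at MT:17808-18032: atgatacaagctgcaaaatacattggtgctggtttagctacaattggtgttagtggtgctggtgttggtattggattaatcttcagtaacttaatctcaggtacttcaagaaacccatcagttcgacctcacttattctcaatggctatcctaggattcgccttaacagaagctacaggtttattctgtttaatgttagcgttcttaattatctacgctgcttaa
A match here describes letters only, and none of the counts was tested against the enrichments.

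The deposited normalized counts summed to between 8042875 and 72878501 in the input libraries, between 9480520 and 15701389 in the IPs, and between 42446075 and 47945097 in RNA-Seq. The inputs of experiment 1 stood apart: rows with identifiers starting SPRRNA held 72.1% of the Zfs1 input and 34.7% of the GFP input there, and from 0.0945% to 4.19% of the inputs of experiments 2 and 3. The median log2 ratio of IP to input over all tested transcripts was −1.50, 0.14 and 0.10 in Zfs1 experiments 1, 2 and 3, and −0.33, 0.39 and 0.0041 in the GFP experiments. Member ratios are therefore also given relative to these medians. The zfs1 gene itself had 10098 and 10660 normalized counts in wild type and 6168 and 5866 in the libraries labelled zfs1Δ, so that it was lower by 0.79 on the log2 scale (limma adjusted p = 2.1e-08) but not absent.

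The 8 messengers together took a far larger part of the Zfs1 IP than of any other library. They held 0.546%, 0.865% and 0.814% of the Zfs1 input in experiments 1, 2 and 3, and 15.1%, 4.61% and 12.6% of the matching IP. In the GFP control the order was the opposite, with 1.33%, 1.46% and 1.58% of the input and 0.545%, 0.269% and 0.271% of the IP. Input and IP did not overlap in either strain, and cox1 alone ranked first among all 7018 transcripts in Zfs1 IPs 1 and 3 and at rank 2 in Zfs1 IP 2. Its rank was between 16 and 32 in the inputs and between 77 and 241 in the GFP IPs. These shares do not depend on the scaling of the libraries, but they do depend on the ribosomal RNA in each.

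**Figure D1:**
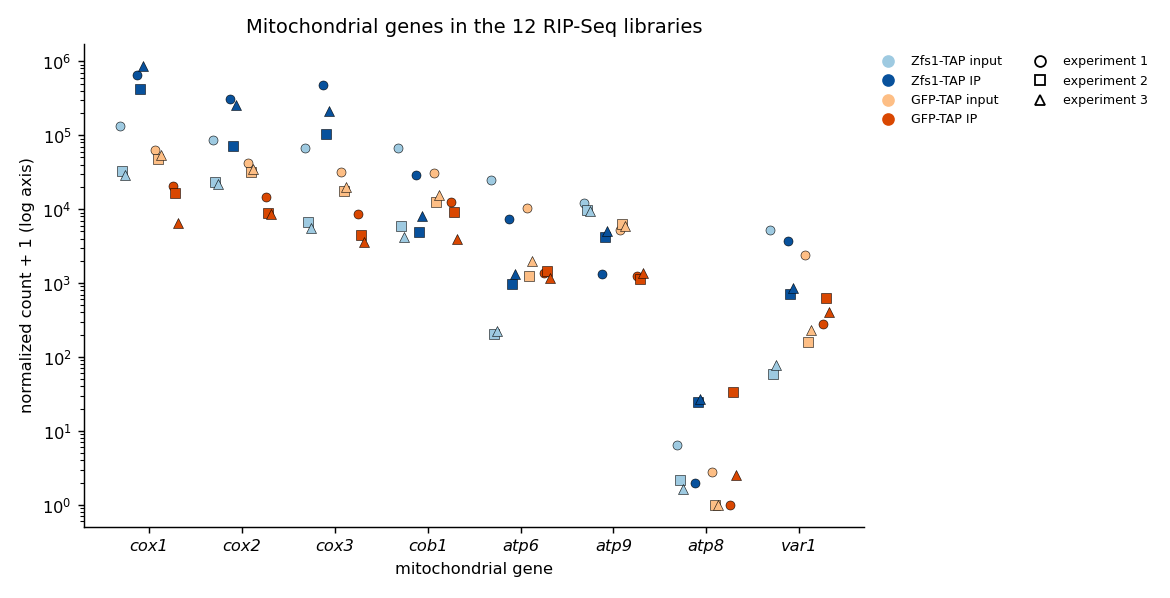
Normalized count plus 1 (log axis) of each mitochondrial gene in the 12 RIP-Seq libraries, with colour for strain and fraction and marker shape for the experiment. The dark blue Zfs1 IP points of cox1 (425071 to 864718) and cox3 (104651 to 479610) sit above all their inputs, the dark orange GFP IP points of both sit below theirs, and among the inputs of each strain those of experiment 1 are the highest for cob1, atp6 and var1.

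Of the 8 messengers, 7 averaged at least 1 CPM (1 count in 1000000) and were tested with limma on log2(normalized count + 1). The experiment was a block in the fit, and p-values were adjusted by the Benjamini-Hochberg method over all tested transcripts. In the Zfs1 IP, 4 of the 7 were higher than in the input (cox1, cox2, cox3 and var1) and 0 were lower, against 10.3% of 5929 transcripts called higher and 10.8% called lower. At an unadjusted p under 0.05, 5 of the 7 passed, as did 34.2% of all transcripts tested. The median log2 ratio was 2.19 over the 7 and −0.44 over all tested. The fit gave all transcripts the same standard error, 0.74 on the log2 scale, since it pooled the spread completely.

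Cytochrome c oxidase, the last complex of the respiratory chain, has its catalytic core in Cox1, Cox2 and Cox3. For cox1, which encodes the subunit with the haem and copper centre where oxygen is reduced, input values were 135096, 32654 and 28608 in experiments 1, 2 and 3, and IP values were 659056, 425071 and 864718. Every IP value was above every input value. The log2 ratio was 3.64 ± 0.74 (SE, n = 3 experiments, limma adjusted p = 3.8e-05), a 12.4-fold difference that placed cox1 at rank 84 from the top of 5929. Relative to the median transcript the 3 experiments gave 3.79, 3.56 and 4.82, so that the experiments lay closer together than before centring (SD 0.67 against 1.32).

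The cox3 messenger, for a core subunit without metal centres, had input values of 67499, 6789 and 5527 and IP values of 479610, 104651 and 214040. Its IP and input values did not overlap either, and only cox1 and cox3 of the 7 had this pattern, against 13.1% of transcripts with all IP values above all input values. The log2 ratio was 4.02 ± 0.74 (SE, n = 3, limma adjusted p = 4.1e-06), 16.2-fold, at rank 48 of 5929, with median-centred values of 4.33, 3.81 and 5.17.

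For cox2, whose product carries the copper site that accepts electrons from cytochrome c, input values were 85814, 23422 and 21650 and IP values were 304152, 70469 and 254215. The ranges overlapped because the input of experiment 1 was above the IP of experiment 2, but within each experiment the IP was higher, by 3.54-fold, 3.01-fold and 11.7-fold. The log2 ratio was 2.32 ± 0.74 (SE, n = 3, limma adjusted p = 0.014), lower than that of cox1.

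The var1 messenger encodes a protein of the small mitochondrial ribosomal subunit. Its input values were 5279, 57.3 and 75.7 and its IP values were 3660, 706 and 865. The IP was lower than the input in experiment 1 and higher in experiments 2 and 3, with log2 ratios of −0.53, 3.60 and 3.50. The fitted ratio of 2.19 ± 0.74 passed the test (SE, n = 3, limma adjusted p = 0.021), although its spread over experiments was an SD of 2.35.

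The atp6 messenger, for the subunit of ATP synthase that forms the proton channel with the rotor ring, followed the same course. Its input values were 25129, 205 and 223 and its IP values were 7367, 978 and 1338, so that the log2 ratios were −1.77, 2.25 and 2.58. The fitted value was 1.02 ± 0.74 (SE, n = 3, limma adjusted p = 0.32). The high input of experiment 1 set both messengers apart from cox1, whose inputs varied less.

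Cytochrome b, the product of cob1 and the mitochondrially encoded subunit of the bc1 complex, did not share the enrichment of the oxidase messengers. Its input values were 67191, 5986 and 4223 and its IP values were 28782, 4964 and 8171, with the IP higher only in experiment 3. The log2 ratio was −0.18 ± 0.74 (SE, n = 3, limma adjusted p = 0.88), and 0.24 ± 0.63 (mean ± SD, n = 3) relative to the median transcript.

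The atp9 messenger, for the subunit of the rotor ring of ATP synthase, was the one member whose 3 IP values were all below all input values, against 32.7% of transcripts with that pattern. Input values were 12108, 9681 and 9477 and IP values were 1333, 4238 and 5047. The log2 ratio was −1.76 ± 0.74 (SE, n = 3, limma adjusted p = 0.070), which did not pass, and the median-centred values were −1.68, −1.33 and −1.01. The atp8 messenger, for a small subunit of the membrane part of ATP synthase and with 147 nt the shortest of the coding sequences, was not tested, with 5.42, 1.17 and 0.617 in the inputs and 0.993, 23.8 and 25.7 in the IPs.

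The calls depended on single experiments. Without experiment 3, 0 of 7 members passed in limma, with log2 ratios of 2.99 for cox1 (adjusted p = 0.12), 3.39 for cox3 (adjusted p = 0.062), 1.71 for cox2 (adjusted p = 0.42) and 1.54 for var1 (adjusted p = 0.47), and the calls among all transcripts fell to 75 higher and 93 lower. Without experiment 2, cox1 and cox3 passed, and cox2 (2.69, limma adjusted p = 0.093) and var1 (1.48, adjusted p = 0.37) did not. The calls among all transcripts were then 106 higher and 148 lower. Without experiment 1, whose inputs stood apart, 6 of 8 were called higher, atp6 (2.42, adjusted p = 0.00055) and atp8 among them, and atp9 was called lower (−1.05, adjusted p = 0.015). The calls among all 5901 transcripts tested then rose to 2025 higher and 1400 lower. The call of atp9 as lower also appeared when the libraries were centred on their medians (−1.54, limma adjusted p = 0.0049), where 2006 of 5929 transcripts were called lower. That of var1 as higher was lost with a pseudocount of 0.1 (limma adjusted p = 0.055), where 473 transcripts were called higher.

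**Figure D2:**
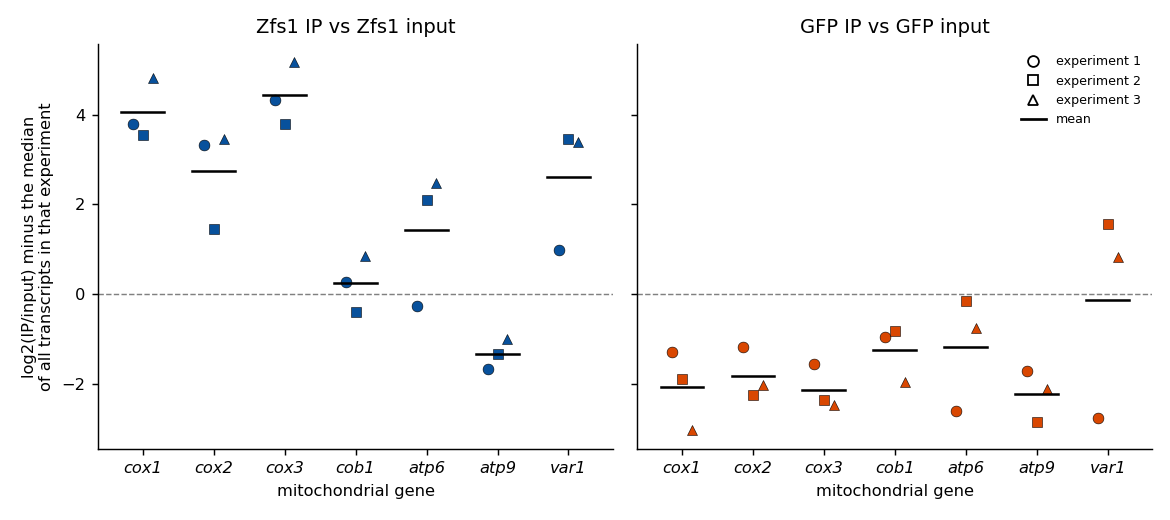
Log2 ratio of IP to input minus the median ratio of all tested transcripts in that experiment, for the 7 tested mitochondrial genes in the Zfs1 IP (left) and the GFP IP (right), with 1 point per experiment and a bar at their mean. In the Zfs1 IP the cox1 points (3.79, 3.56 and 4.82) and the cox3 points (4.33, 3.81 and 5.17) are the highest and the atp9 points lie below 0, and in the GFP IP the points of cox1, cox2, cox3, cob1, atp6 and atp9 lie below 0.

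In the mock IP the mitochondrial messengers were not enriched. None of the 7 tested passed the limma test in the GFP IP (0 higher and 0 lower, adjusted p from 0.0996 to 0.96), where only 0.034% of 5887 transcripts were called higher and 0.17% lower, and 5 of the 7 had an unadjusted p under 0.05, against 23.9% of all. All 7 log2 ratios were below 0, with a median of −1.81 against −0.013 over all tested. When limma was given a variance prior that follows the mean level, with robust estimation, 658 transcripts were called higher and 386 lower, and 6 of the 7 members (all but var1) were called lower.

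For cox1, GFP input values were 64006, 47302 and 53767 and GFP IP values were 20832, 16526 and 6524. The groups did not overlap, and the log2 ratio was −2.06 ± 0.42 (SE, n = 3, limma adjusted p = 0.12), or 4.17-fold lower in the IP. The GFP values of cox3 were 31336, 17775 and 20123 in the input and 8483, 4496 and 3620 in the IP, a log2 ratio of −2.11 ± 0.32 (SE, n = 3, limma adjusted p = 0.10). Those of cox2 were 42281, 32193 and 35029 in the input and 14758, 8767 and 8572 in the IP, a log2 ratio of −1.81 ± 0.31 (SE, n = 3, limma adjusted p = 0.11). Each of the 3 oxidase messengers thus had all GFP IP values below all GFP input values.

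The lowest ratio was that of atp9, with 5171, 6263 and 5926 in the GFP input and 1242, 1132 and 1368 in the IP. Its log2 ratio was −2.21 ± 0.31 (SE, n = 3, limma adjusted p = 0.0996). With it, 4 of the 7 had all IP values below all inputs, against 15.8% of transcripts. With the variance prior that follows the mean, the adjusted p of these 4 was 0.00026 for cox1, 1.7e-05 for cox3, 0.00094 for cox2 and 2.4e-09 for atp9.

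The other 3 overlapped between IP and input. GFP input values of cob1 were 31012, 12386 and 15546 and IP values were 12616, 9142 and 3986, with a log2 ratio of −1.23 ± 0.40 (SE, n = 3, limma adjusted p = 0.16). The atp6 values were 10402, 1247 and 1990 in the input and 1363, 1453 and 1187 in the IP, with a log2 ratio of −1.15 ± 0.63 (SE, n = 3, limma adjusted p = 0.30). Those of var1, 2394, 160 and 229 in the input and 277, 625 and 409 in the IP, gave log2 ratios of −3.10, 1.96 and 0.83. As in the Zfs1 strain, atp6 and var1 had their highest inputs and their lowest ratios in experiment 1. Values of atp8 were 1.78, 0 and 0 in the input and 0, 32.7 and 1.53 in the IP.

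The contrast of both enrichments tested the difference between the Zfs1 and GFP IPs itself. It used all 12 libraries, with each experiment of each strain as a block. In this fit the oxidase messengers passed and no other member did: 3 of 7 were higher and 0 lower, against 6.69% of 5933 transcripts called higher and 3.62% lower. The difference in log2 ratio was 5.70 ± 0.83 for cox1 (SE, n = 3 per strain, limma adjusted p = 0.00037), at rank 29 of 5933. It was 6.13 ± 0.79 for cox3 (adjusted p = 0.00011 in limma), at rank 18, and 4.13 ± 0.78 for cox2 (adjusted p = 0.0037 in limma), at rank 96. These 3 were also the members with every Zfs1 ratio above 0 and every GFP ratio below 0, a pattern held by 3.05% of transcripts.

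For the other 4 tested members the difference was 2.29 ± 1.18 for var1 (limma adjusted p = 0.19), 2.17 ± 1.05 for atp6 (0.17), 1.05 ± 0.80 for cob1 (0.37) and 0.45 ± 0.79 for atp9 (0.72). All 7 differences were above 0, with a median of 2.29 against −0.35 over all tested. Without experiment 3, the difference of cox2 no longer passed (3.41, adjusted p = 0.26) and those of cox1 and cox3 still did. Without experiment 1, atp6 (2.68, limma adjusted p = 0.031) and var1 (2.15, adjusted p = 0.046) passed as well. Among all transcripts 50 were called higher without experiment 3 and 916 without experiment 1, against 397 with all experiments. When same-numbered experiments of the strains were paired, a fit chosen after the values were seen, 4 of 7 passed in limma. They were cox1 (adjusted p = 0.032), cox2 (adjusted p = 0.034), cox3 (adjusted p = 0.018) and var1 (adjusted p = 0.046), against 374 higher and 390 lower among all transcripts. The var1 differences of experiments 1, 2 and 3 were 2.58, 1.64 and 2.67, closer together than its Zfs1 ratios. Those of atp6 were 1.16, 2.03 and 3.32 (limma adjusted p = 0.062).

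Members changed relative to each other within a library, which no scaling of libraries can alter. The ratio of cox1 to cob1 counts was 2.01, 5.46 and 6.77 in the Zfs1 inputs and 22.9, 85.6 and 106 in the Zfs1 IPs. In GFP it was 2.06, 3.82 and 3.46 in the inputs and 1.65, 1.81 and 1.64 in the IPs. The ratio of cox3 to cob1 likewise went from between 1.00 and 1.31 in the Zfs1 inputs to between 16.7 and 26.2 in the IPs. The 3 oxidase messengers made up between 72.4% and 79.9% of the 8-gene total in the Zfs1 inputs and between 97.2% and 98.9% in the Zfs1 IPs.

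**Figure D3:**
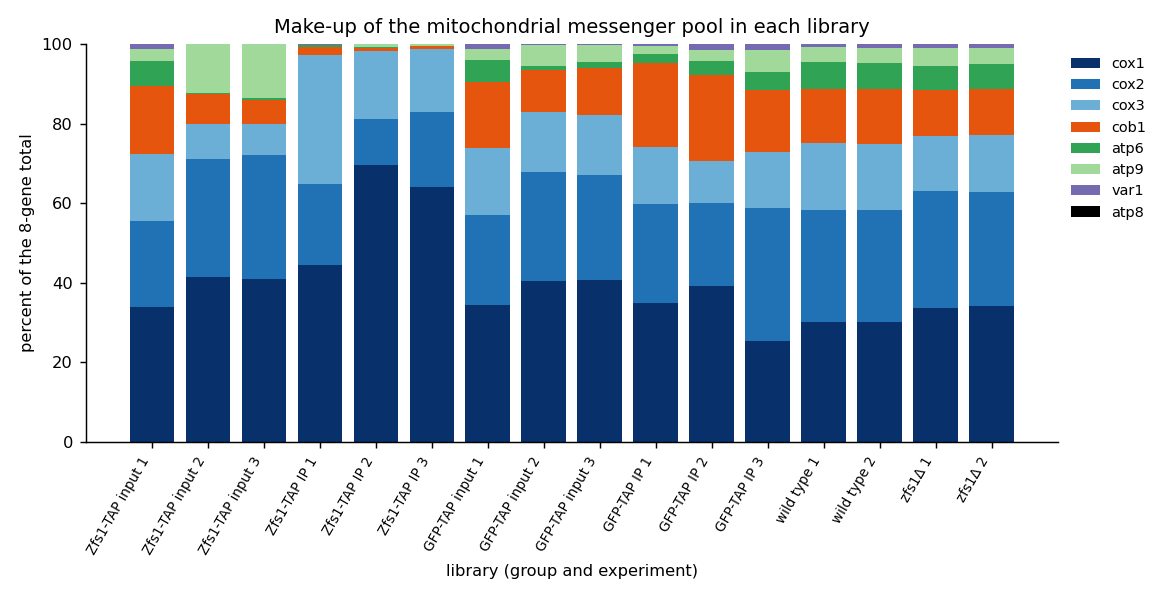
Share of the summed normalized counts of the 8 mitochondrial genes taken by each gene (percent, stacked) in all 16 libraries, named by group and experiment. The blue segments of cox1, cox2 and cox3 fill at least 97.2% of each Zfs1 IP and at most 79.9% of each Zfs1 input, and the light green segment of atp9 takes 12.3% and 13.6% of the Zfs1 inputs of experiments 2 and 3.

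The same 7 messengers were compared between the inputs of the tagged strains. In limma, 0 were higher and 0 lower, with adjusted p from 0.83 to 0.96, against 0.119% and 0.0509% of 5893 transcripts, and 0 of the 7 had an unadjusted p under 0.05. With the experiment number as a replicate block the count stayed at 0 of 7, while the calls among all transcripts went from 7 to 53 higher and from 3 to 32 lower. The log2 ratio of Zfs1 to GFP input was between 1.02 and 1.27 for all 7 in experiment 1, where the median transcript stood at 1.17. In experiments 2 and 3 it was above 0 only for atp9 (0.63 and 0.68) and reached −2.60 and −3.15 for atp6.

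**Figure D4:**
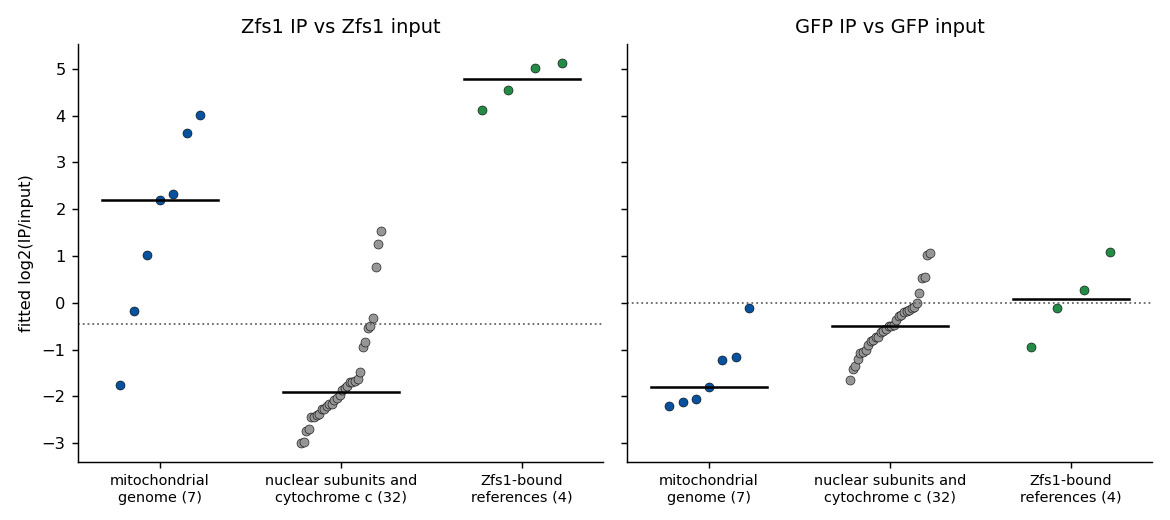
Fitted log2 ratio of IP to input in the Zfs1 strain (left) and the GFP strain (right) for the 7 tested mitochondrial genes, 32 nuclear genes for subunits of the same complexes with cytochrome c, and 4 reference transcripts, with 1 point per gene, a bar at each median and a dotted line at the median of all tested transcripts. In the Zfs1 IP the medians are 2.19, −1.92 and 4.79, and in the GFP IP they are −1.81, −0.50 and 0.081.

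None of the listed nuclear genes for partners of these proteins was called higher in the Zfs1 IP. The list held 32 nuclear genes for subunits of the bc1 complex, cytochrome c oxidase and ATP synthase and for cytochrome c. Of these, 0 were higher in the Zfs1 IP and 16 were lower, against 10.3% and 10.8% of all transcripts. Their median log2 ratio was −1.92 against −0.44 over all tested. Ratios above 0 were those of 3 genes, cox7 (1.53, limma adjusted p = 0.12), cox13 (1.26, adjusted p = 0.22) and atp7 (0.76, adjusted p = 0.48). The lowest were tim11 (−2.99, limma adjusted p = 0.00099) and atp20 (−2.98, adjusted p = 0.0011), both for ATP synthase subunits that in budding yeast hold the dimer together. For the bc1 complex, 5 of 9 nuclear subunits were lower and cob1 was not called, and for cytochrome c oxidase 4 of 8 nuclear subunits were lower while all 3 mitochondrial ones were higher. In the GFP IP 0 of the 32 were called in limma in either direction, against 0.034% of all transcripts called higher and 0.17% lower. At an unadjusted p under 0.05, 10 of them passed, against 23.9% of all. In the contrast 0 of the 32 were higher and 3 lower, against 6.69% and 3.62% of all transcripts. The 3 were cyt1 (−2.69, limma adjusted p = 0.035), qcr2 (−2.54, adjusted p = 0.047) and tim11 (−2.50, adjusted p = 0.041). The highest differences were those of cox7 (2.73, limma adjusted p = 0.0504) and cox13 (2.08, adjusted p = 0.090), which did not pass.

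Among 59 nuclear genes with symbols starting mrp or rsm, most for proteins of the mitochondrial ribosome, 1 was higher and 11 were lower in the Zfs1 IP, beside 10.3% and 10.8% of all transcripts, with a median of −1.03 against −0.44. The references arz1, cbf12, ecl3 and puc1 were all higher, with log2 ratios of 5.13, 4.55, 5.02 and 4.12. The study names the first 3 as targets known earlier and singled out puc1 from these samples, so that the direction of puc1 is not independent evidence. The ratio of cox3 (4.02) was close to that of puc1. In the GFP IP their ratios were −0.12, 1.08, −0.96 and 0.28, all closer to 0 than those of cox1 and cox3. The cytosolic comparators act1, atb2 and cdc2, for actin, a tubulin and the main cell cycle kinase, were not called in the Zfs1 IP (−1.67, −1.10 and 1.27). The study, with edgeR and paired samples, gives each of them a false discovery rate under 0.05 there, so the tests differ.

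The rest of the mitochondrial genome was covered by 28 other identifiers starting SPMIT, of which 25 are tRNA rows listed at 0 in all libraries. The other 3, SPMIT.02, SPMIT.03 and SPMIT.06, are not annotated in the sources used here, and whether they share a precursor with a member was not tested. SPMIT.02 and SPMIT.03 were higher in the Zfs1 IP, with log2 ratios of 2.59 ± 0.74 (SE, n = 3, limma adjusted p = 0.0053) and 2.98 ± 0.74 (adjusted p = 0.0011). Their GFP ratios were −2.42 and −1.94, and the contrast gave 5.01 (limma adjusted p = 0.0016) and 4.92 (adjusted p = 0.0012). SPMIT.06, the most abundant mitochondrial row in every input, had 530313, 101492 and 90715 in the Zfs1 inputs and 28283, 23589 and 24298 in the IPs, a log2 ratio of −2.74 ± 0.74 (SE, n = 3, limma adjusted p = 0.0029). Its GFP ratio was −3.14, and the difference of 0.40 did not pass (limma adjusted p = 0.76). In RNA-Seq it had 370341 and 356584 in wild type and 437342 and 400887 in zfs1Δ, and was called higher there (log2 ratio 0.20, SE 0.067, n = 2 per group, limma adjusted p = 0.019).

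The 5 nuclear transcripts whose log2 values over the 12 RIP-Seq libraries were most correlated with the mean log2 value of the 8 members were mbx2 (Pearson r = 0.96), dma1 (0.95), chp2 (0.95), pnn1 (0.94) and gpi8 (0.94), out of 4870 with a mean of at least 10 CPM. mbx2 encodes a MADS-box transcription factor, dma1 a ubiquitin ligase of the spindle checkpoint and chp2 a heterochromatin protein. The points of such a correlation share experiments and library scaling. Fitted log2 ratios in the Zfs1 IP were 2.08 for mbx2 and from 0.74 to 1.16 for the other 4. The single members correlated with their own mean from r = 0.16 for atp9 to r = 0.92 for cox3.

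In the wild-type RNA-Seq libraries the levels of the messengers could be ordered per length. Per 1000 nt of coding sequence, the wild-type mean was 253090 normalized counts for cox2, 138881 for cox3, 126124 for cox1, 112386 for atp9, 80191 for cob1, 57970 for atp6 and 8889 for var1 (SD from 1135 to 12660, n = 2), and atp8 was listed at 0. The libraries of neighbouring genes did not overlap, with the narrowest gap between atp9 (105004 and 119767) and cox1 (121218 and 131030). The order differed in zfs1Δ, where cox2 (251871) was followed by cox1 (136752), atp9 (128067) and cox3 (112723). These orders were not tested, and the transcript lengths used in counting were not given in the sources used here.

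In zfs1Δ, small decreases of cox3, cob1 and atp6 passed the test, and the other 4 tested members were not called. In limma, 3 of 7 were lower and 0 higher in zfs1Δ, against 13.9% of 5177 transcripts called lower and 28% higher, and 4 of the 7 had an unadjusted p under 0.05, against 48.8% of all. These extracts hold whole cells, and whether there were fewer mitochondria per cell or less RNA per mitochondrion was not tested. The mitochondrial rows did not all move in 1 direction: cox1 and atp9 had ratios above 0, and SPMIT.06 was called higher (0.20, limma adjusted p = 0.019). For cox3, wild-type values were 108571 and 116416 and zfs1Δ values were 91129 and 91482. It fell by 0.30 on the log2 scale (SE 0.068, n = 2 per group, limma adjusted p = 0.0014). The standard errors of this fit leaned on the spread pooled over all transcripts. The smallest was 0.0668, and atp9 had 0.079 although its ratios in the 2 experiments had an SD of 0.26. For cob1, values were 88995 and 97691 in wild type and 76679 and 75359 in zfs1Δ, and it fell by 0.29 (SE 0.069, limma adjusted p = 0.0019). These are differences of 1.23-fold for both, far smaller than those between IP and input.

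For atp6, values were 44068 and 45670 in wild type and 39797 and 39523 in zfs1Δ, a fall of 0.18 (SE 0.067, limma adjusted p = 0.040). The 3 genes had all zfs1Δ values below all wild-type values, as did 26.9% of transcripts. The call of atp6 was lost whichever of the 4 libraries was left out (adjusted p from 0.067 to 0.10), that of cob1 without wild type 2 (−0.23, adjusted p = 0.054), and all 3 were lost with no filter on low values. The log2 ratios of these 3 genes were below 0 in each of those fits. With no filter, the transcripts called lower fell to 166 of 6025, from 719 of 5177.

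The cox1 and atp9 values lay above wild type without overlap, as did those of 47.9% of transcripts, but did not pass. For cox1, values were 196009 and 211876 in wild type and 221938 and 220317 in zfs1Δ (log2 ratio 0.12, SE 0.068, limma adjusted p = 0.18). For atp9, values were 23626 and 26948 in wild type and 30564 and 27066 in zfs1Δ (log2 ratio 0.19, SE 0.079, limma adjusted p = 0.063). The ratios of cox2 (−0.0065) and var1 (−0.043) had opposite signs in the 2 experiments. Within libraries, the ratio of cox1 to cob1 was 2.20 and 2.17 in wild type and 2.89 and 2.92 in zfs1Δ, and the 8 genes together held 1.53% and 1.56% of the wild-type libraries and 1.37% and 1.39% of the zfs1Δ ones.

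Of the nuclear partners, 3 of 29 tested were higher in zfs1Δ and 0 lower, against 28% and 13.9% of all transcripts. They were cox7 (0.51, limma adjusted p = 0.0015), atp17 (0.20, adjusted p = 0.023) and cox13 (0.19, adjusted p = 0.034). The references arz1, cbf12, ecl3 and puc1 rose by 2.31, 1.12, 1.33 and 0.72, whereas cox1 and cox3 stood at 0.12 and −0.30. The Zfs1 IP ratios of cox1 (3.64) and cox3 (4.02) were below those of all 4 references (4.12 to 5.13). In both groups atp8 was listed at 0 in all 4 libraries.

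**Figure D5:**
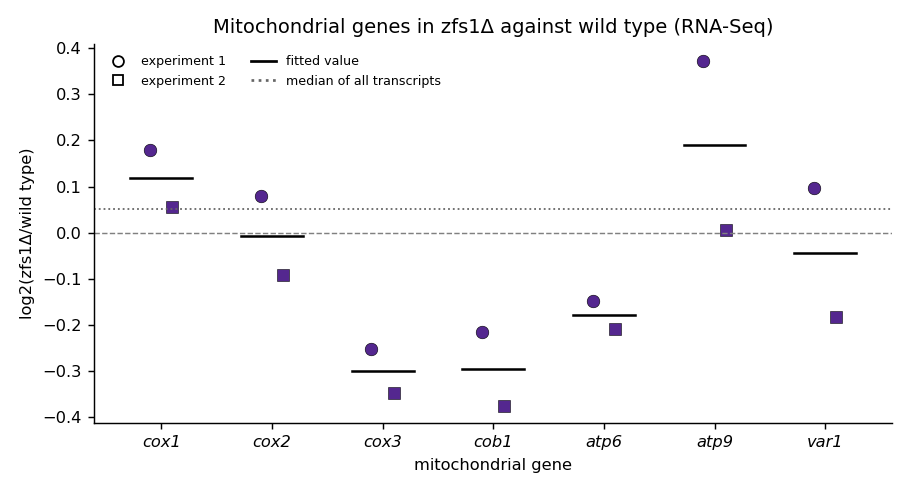
Log2 ratio of zfs1Δ to wild type for the 7 tested mitochondrial genes in RNA-Seq, with 1 point per experiment, a bar at the fitted value, a dashed line at 0 and a dotted line at the median of all tested transcripts (0.050). Both points of cox3, cob1 and atp6 lie below 0, and those of cox2 and var1 lie on either side of 0.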

How the data were processed

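Ribosomal RNA was depleted, and the authors sequenced strand-specific 100 bp paired-end libraries, aligned them to a PomBase genome and counted reads with RSEM 1.1.19 and Bowtie 0.12.7. The deposited signal values are counts normalized with edgeR by the authors, separately for RIP-Seq and RNA-Seq, not whole reads, so no count model was run and sequencing depth is unknown. All value columns were assigned to samples. Log2(value + 1) was tested with limma 3.58.1 (R 4.3.3) with a constant variance prior, for transcripts averaging 1 CPM or more, in 5 comparisons, each adjusted over all transcripts. The filter was of the CPM computed from the normalized values. IP and input of a strain share an experiment number and the study's methods account for paired samples, so the experiment was a block. Same-numbered IP and input values, each as a deviation from its group mean, correlated at 0.48, 0.23 and 0.37 for Zfs1. For GFP these correlations were 0.28, 0.23 and 0.098. The zfs1Δ fit also had the experiment number as a block, because the study's methods account for paired samples. Deviations of same-numbered inputs of the 2 strains, each from the mean of its strain, correlated at 0.66, 0.64 and 0.24. The inputs of experiment 1, which stood apart in both strains, enter all of these values. They therefore do not show whether those numbers pair. All 8 members are named. Further names were the other SPMIT rows, the largest called changes and the highest ratios among nuclear subunits, the study's references and the 5 most correlated transcripts. The members follow from their identifiers, but this gene group and the lists were chosen with earlier results of these data known. Symbols came from RefSeq ASM294v3 (6859 of 7018 identifiers matched), and member symbols from the study design. The fits were run on simulated counts without differences in scale between libraries or experiments. The real inputs of experiment 1 stood apart, so that check does not cover them. The precision of a value is limited by the number of experiments. Other scalings, pseudocounts, filters, priors and blocks were tried, and single experiments or libraries left out.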

Additional observations from a re-analysis of the deposited data

Results flagged for a closer look

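In 5 mitochondrial rows the log2 enrichment in the Zfs1 IP differed from that in the GFP IP by the test of the difference itself. These differences were 5.70 for cox1, 4.13 for cox2, 6.13 for cox3, 5.01 for SPMIT.02 and 4.92 for SPMIT.03. Whether SPMIT.02 and SPMIT.03 share a precursor with cox1 was not tested, so the 5 rows are not shown to be independent. Each was above 0 in the Zfs1 IP and below 0 in the GFP IP in 3 of 3 experiments. The tagged protein, its promoter, the markers and the mating type differed together between these IPs and cannot be told apart.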

How the results depend on the processing

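The directions of cox1, cox2 and cox3 in both IPs and in their contrast were the same in every alternative run. With median centring, equal nuclear totals or a pseudocount of 10, 1 member was called lower in the Zfs1 IP, in place of 0. The same held with a minimum of 10 CPM or no replicate block. Among all transcripts 2006, 1985, 862, 772 (of 4870) and 801 were called lower in those fits, against 641 in the main fit. Leaving out an experiment gave 0 to 6 members called higher and 0 to 1 lower, beside 75 to 2025 and 93 to 1400 of all transcripts. In the GFP IP 4 were called lower with a pseudocount of 10 or a minimum of 10 CPM, 6 with the trended prior and 1 with no replicate block. Among all transcripts 271, 178, 386 and 12 were called lower in those fits, against 10 in the main fit. In the contrast 5 were called higher with equal totals or a pseudocount of 10, where 924 and 500 of all transcripts were, against 397 in the main fit. It was 2 to 5 when an experiment was left out, beside 50 to 916 of all transcripts. With the strains paired by experiment number it was 4, beside 374. In zfs1Δ 1 member was called higher with a pseudocount of 10, a minimum of 10 CPM or the trended prior, 0 were called lower with no filter, and 1 to 2 were called lower when a library was left out, where the lone library of a group is assumed to vary like the other group. The zfs1Δ and wild-type numbers correlated at −0.066, so they share only a number, and with no replicate block the 3 calls stood. With a pseudocount of 10, 1493 transcripts were called higher in zfs1Δ, against 1447 in the main fit. A minimum of 10 CPM gave 1196 of 4112 and the trended prior 1594. With no filter 166 of 6025 were called lower, against 719 of 5177 in the main fit.

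The cob1 ratio in the Zfs1 IP changed sign with equal totals (0.50), median centring (0.045) and equal nuclear totals (0.035), and ran from −0.75 to 0.34 when an experiment was left out. The var1 ratio in the GFP IP ran from −1.14 to 1.39 in that case. Of the input ratios, atp9 was −0.015 with equal totals. Without single libraries those of cox1 ran from −0.84 to 0.28, cox2 from −0.69 to 0.31, cob1 from −1.85 to 0.14 and var1 from −2.74 to 0.57, and the zfs1Δ ratios from −0.058 to 0.045 for cox2 and from −0.17 to 0.087 for var1. As a share of nuclear messengers the 8 genes held on average 1.30% in Zfs1 inputs, 1.85% in GFP inputs, 1.67% in wild type and 1.51% in zfs1Δ. In experiments 1, 2 and 3 it was 2.13%, 0.913% and 0.856% in the Zfs1 inputs and 2.23%, 1.56% and 1.76% in the GFP inputs. The cause of these changes was not tested.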
